A study of Mus musculus with 18 samples.

Results

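The BCL2 family sets the threshold at which a cell's mitochondria release cytochrome c and the cell enters apoptosis. Its messenger RNAs were read here in mouse bone marrow–derived dendritic cells (DCs) that had migrated in collagen or had been held in suspension. The members were 10 genes chosen by name among the 29875 genes of the count table, namely Bcl2, Bcl2l1, Mcl1, Bcl2a1b, Bax, Bak1, Bbc3, Pmaip1, Bcl2l11, and Bid. All 10 passed the filter on low counts, as did 13844 genes in all. The cells came from wild-type C57Bl6/J mice of 8 to 12 weeks, were grown with GM-CSF, and were matured on day 8 with LPS at 200 ng/ml for 24 hours. They were then placed in migration chambers in bovine collagen at 1.7, 2.6, 3.5, or 4.4 mg/ml with a gradient of the chemokine CCL19, or in chambers without collagen, and RNA was taken 5 hours after the gradient was set up. Each of the 6 groups had 3 replicates, which gave 12 collagen and 6 suspension libraries. The suspension groups are titled plus CCL19 and without CCL19, but in every replicate the library name says the opposite of the title. They are called here as titled, and differences between them are not read as effects of CCL19.

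The proteins fall into groups by role. Pro-survival members (Bcl2, Bcl2l1, Mcl1, and Bcl2a1b) bind and hold back the effectors Bax and Bak1, which open the outer mitochondrial membrane. BH3-only members (Bbc3, Pmaip1, Bcl2l11, and Bid) are sensors of stress that neutralize the pro-survival members or engage the effectors. DCs are short-lived after maturation, and Bcl2l11 and the pro-survival members are known to set their life span.

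Total counts ranged from 13062944 to 28059839, so that 3 counts, a floor that covers counting error only, corresponded to 0.0939 to 0.256 CPM (counts scaled to the TMM-adjusted library size). By the library names, all 6 libraries of a replicate number carry 1 date and 1 lane, which makes each replicate number a batch with every group in it. Each of 10 defining DC markers had counts in every group, and their summed level was 15799 to 52463 CPM over the 18 libraries. However, 2 of the 10 were lower in collagen, Flt3 (−1.12, adjusted p = 0.0446) and Ciita (−1.03, adjusted p = 0.00492, edgeR). With the replicate number as a block Itgax was higher as well (0.72, adjusted p = 0.0168, edgeR). Markers of other cell types also moved with collagen. All 8 eosinophil markers tested were lower in collagen, with a summed level of 14.1 to 170 CPM against 118 to 1360 CPM in suspension. Of 10 neutrophil markers 3 were lower (1046 to 5174 CPM against 636 to 9766 CPM), and of 8 macrophage markers 1 was higher without and 5 with the replicate as a block (537 to 2673 CPM against 401 to 2267 CPM). None of 6 basophil and mast cell markers, 4 lymphocyte markers, or 3 fibroblast markers passed the test without the block, and with it 2 and 1 of the first 2 lists were lower and 1 fibroblast marker was higher. The mitochondrial share of counts was 0.832% to 2.90% in collagen and 0.583% to 1.68% in suspension, and the lowest value in collagen came from replicate 2 at 4.4 mg/ml. The part of these differences in the results below was not tested. In such bulk libraries, fewer cells of a type and less RNA per cell cannot be told apart.

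Per kilobase of exon, the members differed widely in level (mean ± SD over 18 libraries, in CPM per kilobase). Mcl1, a short-lived pro-survival protein, was first with 303.9 ± 94.3, followed by Bak1 with 186.8 ± 46.7, Bax with 106.5 ± 18.8, and Bcl2a1b with 97.7 ± 54.7. Pmaip1 (28.4 ± 17.2), Bcl2l1 (25.2 ± 5.78), Bbc3 (11.5 ± 2.45), and Bcl2l11 (10.2 ± 4.31) formed a middle range. Bid was at 2.47 ± 1.04 and Bcl2, the founding member, was last at 0.290 ± 0.190, with 8 to 163 counts per library. Neighbors in this order overlapped in their ranges except that Bid lay below Bcl2l11 in every library and Bcl2 below Bid. Among the pro-survival genes, the level of Bcl2 was therefore a small fraction of that of Mcl1 in every library.

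**Figure D1:**
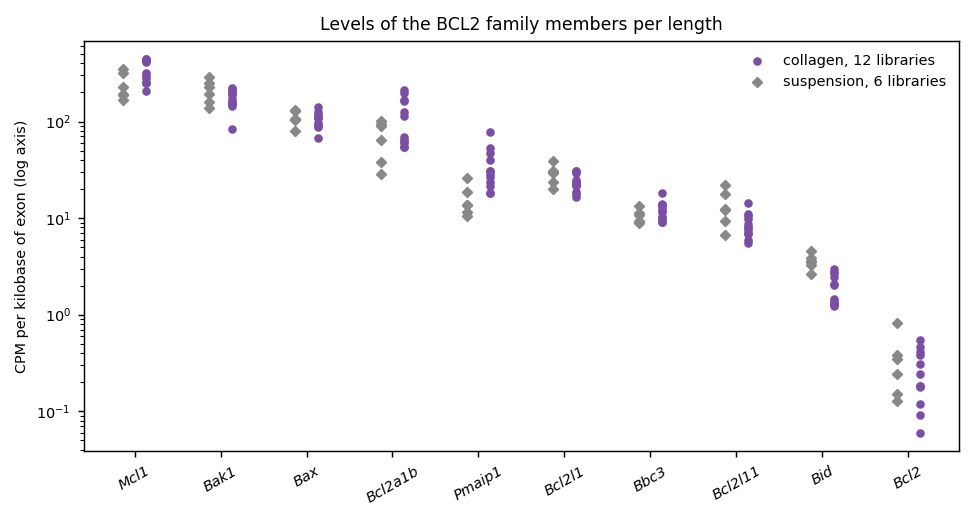
Level of each BCL2 family member in CPM per kilobase of exon on a log axis, with 1 point per library (diamonds, 6 suspension libraries; circles, 12 collagen libraries) and genes ordered by their mean. Mcl1 was highest with a mean of 303.9 and Bcl2 lowest with a mean of 0.290.

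Collagen against suspension set cells migrating in a matrix with a CCL19 gradient against the mean of the 2 suspension groups. Only 1 of these is titled plus CCL19, so matrix, migration, and chemokine cannot be told apart in this comparison. Of the 10 members, 3 differed between the averaged 4 collagen and the averaged 2 suspension groups, all of them BH3-only genes: Pmaip1 rose, and Bid and Bcl2l11 fell. The background was 20.2% of all genes tested (edgeR quasi-likelihood test, FDR of 0.1), of which 7.78% of genes were higher and 12.4% lower. With the replicate number as a block, 5 members passed, against 34.8% of all genes: the same 3 and the pro-survival genes Mcl1 and Bcl2a1b, both higher. The median log2 difference of the 10 members was −0.16, against 0.00 over all genes tested. The effectors Bax and Bak1 and the remaining BH3-only member, Bbc3, passed in neither fit. When replicate 1, 2, or 3 was left out of the fit without the block, Pmaip1 passed each time. Bid passed except without replicate 2, and Bcl2l11 passed in none of these fits.

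**Figure D2:**
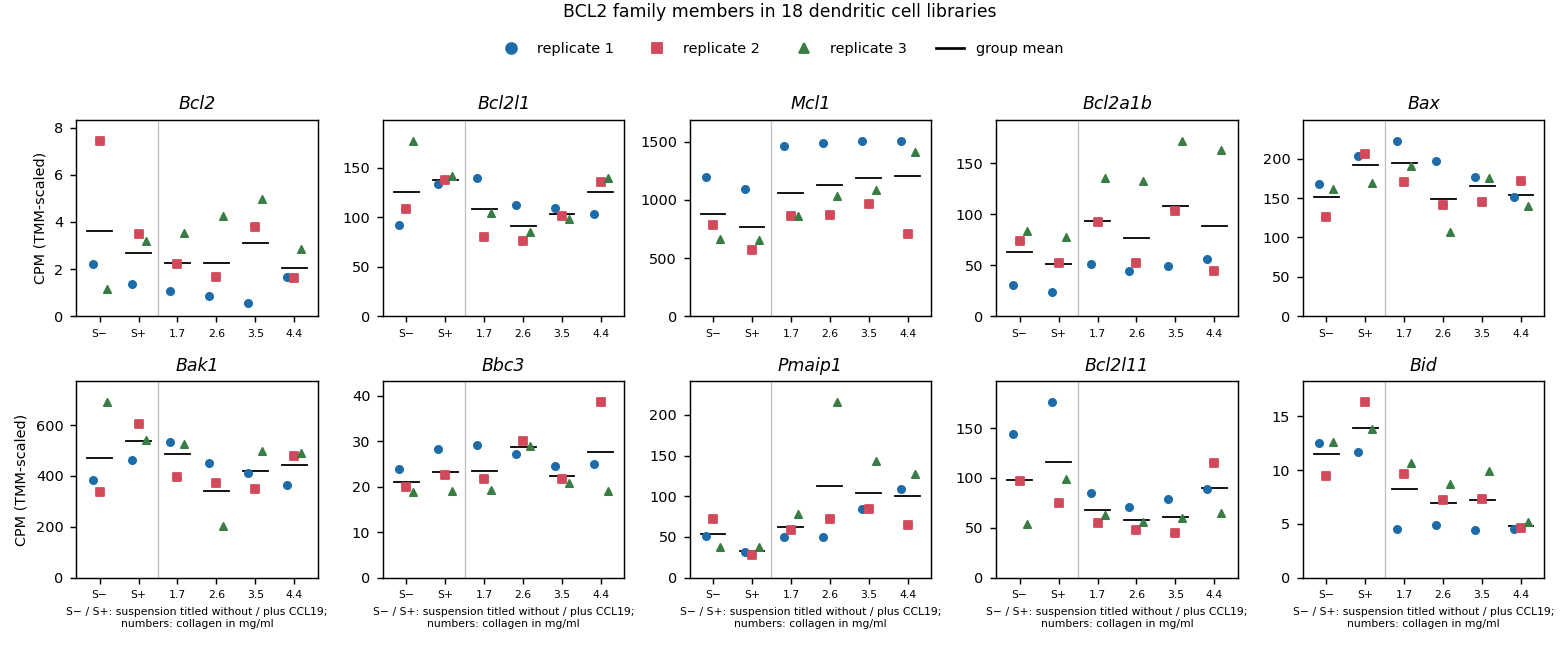
Level of the 10 BCL2 family members in CPM (TMM-scaled, linear axes from 0) in each of 18 libraries. Color and shape mark the replicate number, black lines the mean of 3 libraries, S− and S+ the suspension groups titled without and plus CCL19, and numbers the collagen density in mg/ml. Bid lay at 4.39 to 10.7 CPM in collagen and at 9.43 to 16.3 CPM in suspension.

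Among the pro-survival members, Mcl1 (GRCm38 chr3:95658788-95663176, plus strand) had 1464, 861, and 860.2 CPM in replicates 1 to 3 at 1.7 mg/ml, 1488, 869, and 1035 at 2.6, 1502, 966, and 1086 at 3.5, and 1505, 705, and 1408 at 4.4 mg/ml. In suspension it had 1091, 565, and 651 CPM in the group titled plus CCL19 and 1193, 787, and 662 in the group titled without. Replicate 1 was high in every group, and the collagen and suspension ranges overlapped, but within each replicate number all 4 collagen libraries lay above the mean of the 2 suspension libraries. The difference was 0.48 ± 0.24 on the log2 scale (SE, adjusted p = 0.199, edgeR) and passed with the replicate block (0.48 ± 0.15, adjusted p = 0.0203, edgeR). The blocked call was lost without replicate 1 (0.57, adjusted p = 0.111) or replicate 3 (0.36, adjusted p = 0.152, edgeR). By replicate number it was 0.38, 0.34, and 0.72.

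Bcl2l1, which encodes Bcl-xL, ranged from 76.4 to 140 CPM in collagen (median 104) and from 92.2 to 177 CPM in suspension (median 136). Its log2 difference of −0.31 ± 0.17 did not pass (adjusted p = 0.253, edgeR), and its sign was not the same in all replicates. Bcl2 ranged from 0.549 to 4.99 CPM in collagen (median 1.93) and from 1.16 to 7.43 CPM in suspension (median 2.699). The difference of −0.38 ± 0.48 (adjusted p = 0.658, edgeR) was smaller than its standard error, with −0.79, −1.19, and 0.94 in replicates 1, 2, and 3. Without replicate 3 and with the block, Bcl2 passed (−0.96 ± 0.36, adjusted p = 0.0855, edgeR).

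Bcl2a1b (chr9:89199209-89207827, plus strand) is 1 of several near-identical copies of Bcl2a1, an NF-κB–induced survival gene of blood cells, that lie together on chromosome 9. The copies Bcl2a1a, Bcl2a1b, and Bcl2a1d have a coding sequence of 516 bases each and were 97.9% to 98.8% identical. The first 60 coding bases hold 6 of the 12 coding positions at which the 3 copies are not all alike. They are shown because, within the coding sequence, 50-base reads can separate copies only through such positions. A single position need not separate all 3, and bases outside the coding sequence are not shown (GRCm38, capitals mark those positions, with Bcl2a1a at chr9:88957051-88957110 and Bcl2a1b at chr9:89199360-89199419 on the plus strand and Bcl2a1d at chr9:88731660-88731719 on the minus strand).
Bcl2a1a: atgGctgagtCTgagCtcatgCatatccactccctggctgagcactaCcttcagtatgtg
Bcl2a1b: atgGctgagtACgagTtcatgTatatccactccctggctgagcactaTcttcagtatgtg
Bcl2a1d: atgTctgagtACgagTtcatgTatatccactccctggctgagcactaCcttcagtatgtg
Of all 50-base windows of Bcl2a1b transcripts, 79.2% also occur in another gene, chiefly Bcl2a1d, the overlapping gene model Gm29094, and Bcl2a1a. How reads with several matches were counted is not stated, so the level of each copy is uncertain.

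Bcl2a1b had 50.9, 92.2, and 136 CPM in replicates 1 to 3 at 1.7 mg/ml, 44.7, 52.3, and 133 at 2.6, 49.2, 103, and 172 at 3.5, and 56.5, 44.6, and 163 at 4.4 mg/ml. In suspension it had 23.5, 52.3, and 77.2 CPM (titled plus CCL19) and 31.1, 73.3, and 83.3 CPM (titled without). Replicate 1 was lowest and replicate 3 highest in 5 of 6 groups, and 10 of 12 collagen libraries lay above the suspension mean of their replicate, the exceptions being replicate 2 at 2.6 and 4.4 mg/ml. The log2 difference was 0.68 ± 0.39 (adjusted p = 0.265, edgeR) without and 0.66 ± 0.18 (adjusted p = 0.0113, edgeR) with the replicate block, and 0.89, 0.15, and 0.90 by replicate number. With GC and length offsets it was 0.20 (adjusted p = 0.768, edgeR), and 0.18 with the block as well (adjusted p = 0.365, edgeR). The blocked call was also lost without replicate 1 (0.57, adjusted p = 0.129) or replicate 3 (0.53, adjusted p = 0.130, edgeR). Bcl2a1d gave 0.68 (adjusted p = 0.318) and 0.74 with the block (adjusted p = 0.00771, edgeR), whereas Bcl2a1a gave 0.08 in both fits (adjusted p = 0.911 and 0.761, edgeR).

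The ratio of Bcl2a1b to Bcl2a1a, chosen for display after its values were seen and therefore given with no test, was 0.988 to 1.54 in collagen (median 1.296) and 0.803 to 0.953 in suspension (median 0.882). All 12 collagen libraries lay above all 6 suspension libraries. The ratio of Bcl2a1b to Bcl2a1d overlapped (0.673 to 1.19 in collagen and 0.864 to 1.21 in suspension). So did the ratio of Bcl2a1d to Bcl2a1a (0.879 to 1.98 in collagen and 0.720 to 1.08 in suspension). The 107 bases shown next, taken from RefSeq promoters (GRCm38.p6; Bcl2a1a chr9:88956740-88956846 and Bcl2a1b chr9:89199049-89199155 on the plus strand, Bcl2a1d chr9:88731918-88732024 on the minus strand), were identical in Bcl2a1a and Bcl2a1b. Bcl2a1d lacked a stretch of 6 bases after the AP-1 match, and with that gap the rest matched both copies, with 0 differing positions. Capitals mark a match to the AP-1 motif TGANTCA, which lies 100 bases before the GENCODE start of Bcl2a1a and Bcl2a1b and 50 bases before that of Bcl2a1d. Relative to the RefSeq starts, the match begins at −120 (Bcl2a1a), −164 (Bcl2a1b), and −114 (Bcl2a1d).
Bcl2a1a: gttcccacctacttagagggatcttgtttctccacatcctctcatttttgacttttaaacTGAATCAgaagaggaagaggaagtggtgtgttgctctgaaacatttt
Bcl2a1b: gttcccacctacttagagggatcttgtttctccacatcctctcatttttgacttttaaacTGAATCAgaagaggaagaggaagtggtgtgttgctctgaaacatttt
Bcl2a1d: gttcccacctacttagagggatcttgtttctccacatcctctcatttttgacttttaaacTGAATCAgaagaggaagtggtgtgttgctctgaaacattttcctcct
The motif occurred on either strand in the 250 bases before the RefSeq start of 6.75% of 32851 promoters, and a match describes letters only.

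**Figure D3:**
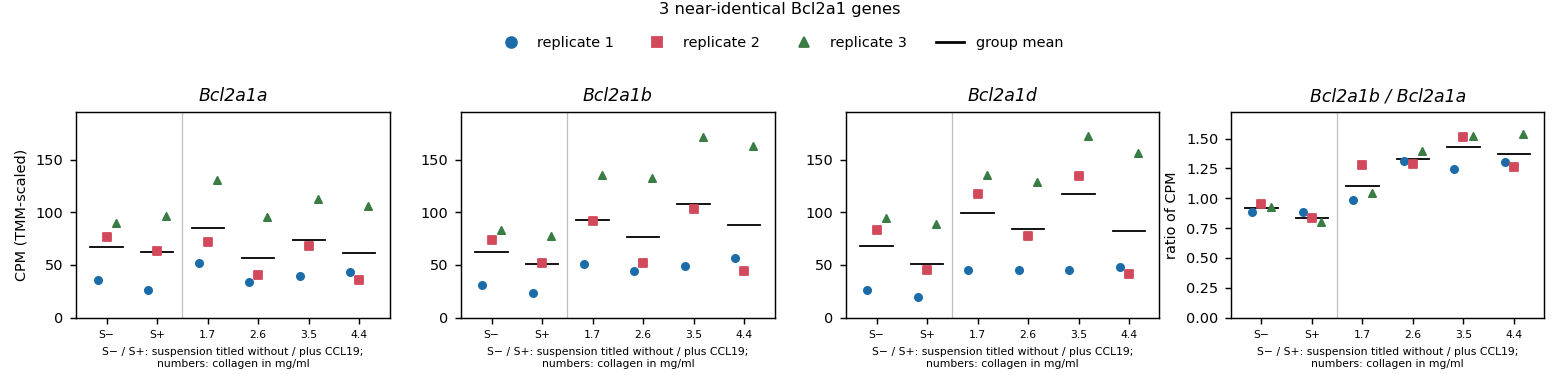
CPM (TMM-scaled) of Bcl2a1a, Bcl2a1b, and Bcl2a1d and the ratio of Bcl2a1b to Bcl2a1a in each library. Color and shape mark the replicate number, black lines the mean of 3 libraries, S− and S+ the suspension groups titled without and plus CCL19, and numbers the collagen density in mg/ml. The ratio was 0.803 to 0.953 in suspension and 0.988 to 1.54 in collagen.

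Neither effector passed the test. Bax, which moves from the cytosol to mitochondria when activated, ranged from 107 to 222 CPM in collagen (median 171) and from 126 to 206 CPM in suspension (median 168). Its log2 difference was −0.05 ± 0.15 (adjusted p = 0.858, edgeR). Bak1, which resides in the mitochondrial outer membrane, ranged from 204 to 535 CPM in collagen (median 431) and from 336 to 690 CPM in suspension (median 502), a log2 difference of −0.26 ± 0.20 (adjusted p = 0.427, edgeR). The lowest value of each in collagen came from the same library, replicate 3 at 2.6 mg/ml, which was also the highest for Pmaip1. Of the windows of Bax, 8.51% also occur in the overlapping model Gm45808.

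Pmaip1 encodes Noxa, a BH3-only protein that binds Mcl-1 and Bcl2a1. It had 49.9, 58.9, and 78.3 CPM in replicates 1 to 3 at 1.7 mg/ml, 50.0, 72.5, and 215 at 2.6, 84.1, 84.8, and 144 at 3.5, and 108, 64.8, and 128 at 4.4 mg/ml. In suspension it had 31.8, 28.4, and 37.7 CPM (titled plus CCL19) and 50.8, 71.8, and 37.6 CPM (titled without). The ranges overlapped through 2 libraries titled without CCL19, and each collagen library lay above the suspension mean of its replicate by 0.31 to 2.51 on the log2 scale. Pmaip1 was 2.22-fold higher in collagen (log2 difference 1.15 ± 0.29, adjusted p = 0.0151, edgeR). By replicate number the difference was 0.78, 0.62, and 1.81, so replicate 3 contributed the most, and without replicate 3 it was 0.71 (adjusted p = 0.0837, edgeR).

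Bid (chr6:120891930-120916853, minus strand) links death receptors to mitochondria after cleavage by caspase-8. It had 4.55, 9.65, and 10.7 CPM in replicates 1 to 3 at 1.7 mg/ml, 4.92, 7.23, and 8.69 at 2.6, 4.39, 7.30, and 9.90 at 3.5, and 4.56, 4.61, and 5.20 at 4.4 mg/ml. In suspension it had 11.7, 16.3, and 13.9 CPM (titled plus CCL19) and 12.5, 9.43, and 12.6 CPM (titled without). Only the lowest suspension library fell within the collagen range, below 3 collagen libraries, and all 12 collagen libraries lay below the suspension mean of their replicate. Bid fell to 0.527 times its suspension level (log2 difference −0.92 ± 0.22, adjusted p = 0.0119, edgeR), with −1.37, −0.82, and −0.66 by replicate number. Without replicate 2 the difference was −0.96 but no longer passed (adjusted p = 0.164, edgeR), whereas with the block it did (−1.02, adjusted p = 0.0121, edgeR).

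Bid was read at 54 to 334 counts per library, and 628 bases of its exons overlap exons of Bcl2l13 on the opposite strand. The kit marks strand, but whether the counting used it is not stated. Bcl2l13, itself read at 400 to 1184 counts, gave a log2 difference of −0.10 ± 0.16 (adjusted p = 0.735, edgeR).

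Bcl2l11 (chr2:128126038-128162547, plus strand) encodes Bim, a BH3-only protein that binds all pro-survival members. It had 85.2, 54.8, and 62.7 CPM in replicates 1 to 3 at 1.7 mg/ml, 70.5, 47.9, and 55.8 at 2.6, 78.9, 44.5, and 59.9 at 3.5, and 88.7, 115, and 65.1 at 4.4 mg/ml. In suspension it had 176, 74.7, and 98.8 CPM (titled plus CCL19) and 144, 97.0, and 54.2 CPM (titled without). The ranges overlapped broadly, and 11 of 12 collagen libraries lay below the suspension mean of their replicate, the exception being replicate 2 at 4.4 mg/ml. Bcl2l11 fell to 0.636 times its suspension level (log2 difference −0.65 ± 0.23, adjusted p = 0.0686, edgeR), with −0.98, −0.49, and −0.27 by replicate number. The call was lost without any 1 of the replicate numbers (adjusted p = 0.419, 0.253, and 0.131 without replicates 1, 2, and 3, edgeR) and with GC and length offsets (−0.47, adjusted p = 0.181, edgeR). With the block it was lost without replicate 1 (−0.36, adjusted p = 0.342, edgeR).

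The promoter at the first annotated start of Bcl2l11 (RefSeq, GRCm38.p6, chr2:128125788-128126037, plus strand) is shown because FOXO factors are known to drive this gene and a FOXO motif lies in it, in capitals and on the opposite strand.
Bcl2l11: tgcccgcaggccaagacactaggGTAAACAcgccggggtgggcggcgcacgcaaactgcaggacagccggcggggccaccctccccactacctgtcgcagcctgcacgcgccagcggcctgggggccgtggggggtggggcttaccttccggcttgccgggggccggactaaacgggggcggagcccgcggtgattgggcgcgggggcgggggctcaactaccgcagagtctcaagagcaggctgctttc
The motif searched was TGTTTAC on both strands, found in 3.17% of promoters. Here too a match describes letters only, and whether FOXO factors acted on Bcl2l11 in these cells was not tested. Of the 10 members 9 had a promoter in the table, and Pmaip1 had none. The FOXO motif also lay before the second start of Bbc3, an NF-κB motif (7.25% of promoters) before the second start of Bcl2l1 and the first of Bbc3, and a p53 decamer motif (7.13%) before Bax, whereas the CRE motif TGACGTCA (1.55%) was found before no member.

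Bbc3 encodes Puma, a p53-induced BH3-only protein. It ranged from 19.1 to 38.6 CPM in collagen (median 24.7) and from 18.9 to 28.2 CPM in suspension (median 21.4), with the highest level in replicate 2 at 4.4 mg/ml. The log2 difference of 0.20 ± 0.17 did not pass (adjusted p = 0.4995, edgeR).

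Each density was next set against the same 6 suspension libraries, which the 4 comparisons share. At 1.7 mg/ml no member passed without the block (0.0361% of all genes, and 0 members at an unadjusted p under 0.05) or with it (2.91%, and 3 members unadjusted), whereas DESeq2 called 0 without the block and 1 with it, Bcl2a1b. At 2.6 mg/ml 1 member passed (7.87% of all genes), and 3 with the block (21.6%). At 3.5 mg/ml 1 passed (4.9%), and 5 with the block (18.4%). At 4.4 mg/ml 2 passed (14.8%), and 4 with the block (31.9%).

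Pmaip1 was higher by 0.58 ± 0.38 on the log2 scale at 1.7 mg/ml (adjusted p = 0.773), by 1.43 ± 0.37 at 2.6 mg/ml (adjusted p = 0.0471), by 1.32 ± 0.37 at 3.5 mg/ml (adjusted p = 0.0787), and by 1.26 ± 0.37 at 4.4 mg/ml (adjusted p = 0.0440, all edgeR). It thus passed at the 3 higher densities, although at 2.6 mg/ml the value rested largely on replicate 3 and was 0.51 without it (adjusted p = 0.560, edgeR). At 3.5 mg/ml the call was lost without any 1 of the replicate numbers, and at 4.4 mg/ml it was lost without replicate 1 (adjusted p = 0.101) or replicate 2 (adjusted p = 0.186, edgeR). Bid was lower by −0.61 ± 0.33, −0.87 ± 0.33, −0.82 ± 0.33, and −1.40 ± 0.34 in the order of density and passed at 4.4 mg/ml (adjusted p = 0.0175, edgeR). With the block Bid also passed at 2.6 mg/ml (adjusted p = 0.0334) and 3.5 mg/ml (adjusted p = 0.0476, edgeR). At 4.4 mg/ml the 3 Bid libraries lay close together, at 4.56 to 5.20 CPM, below every suspension library, and the call was lost without replicate 2 (−1.37, adjusted p = 0.264) or replicate 3 (−1.43, adjusted p = 0.105, edgeR). With the block, the calls of Pmaip1 and Bid at 4.4 mg/ml held without any 1 of the replicate numbers (adjusted p = 0.0158 to 0.0549), while that of Pmaip1 was lost at 2.6 mg/ml without replicate 3 (adjusted p = 0.350) and at 3.5 mg/ml without replicate 1 (adjusted p = 0.108, edgeR).

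Without the block Bcl2l11 gave −0.66 ± 0.34, −0.88 ± 0.34, −0.81 ± 0.34, and −0.26 ± 0.33 in the order of density and passed at none. With the block it passed at 2.6 mg/ml (−0.83 ± 0.26, adjusted p = 0.0382) and 3.5 mg/ml (−0.77 ± 0.26, adjusted p = 0.0619, edgeR). Replicate 2 at 4.4 mg/ml, the library with the low mitochondrial share, was the highest collagen library for Bcl2l11, and without it the value at 4.4 mg/ml was −0.48 (adjusted p = 0.520, edgeR). Mcl1 rose with the block at 3.5 mg/ml (0.55 ± 0.20, adjusted p = 0.0827) and 4.4 mg/ml (0.55 ± 0.20, adjusted p = 0.0516, edgeR), and Bcl2a1b likewise at 3.5 mg/ml (0.89 ± 0.24, adjusted p = 0.0231) and 4.4 mg/ml (0.60 ± 0.24, adjusted p = 0.0796, edgeR). Without replicate 2 at 4.4 mg/ml the blocked values at that density were 0.75 for Mcl1 and 0.94 for Bcl2a1b. Of these blocked calls at single densities, those of Bid at 2.6 and 3.5 mg/ml and of Mcl1 at 3.5 mg/ml were lost without any 1 of the replicate numbers (adjusted p = 0.108 to 0.414, edgeR). Those of Bcl2l11 at 2.6 mg/ml, of Mcl1 at 4.4 mg/ml, and of Bcl2a1b at 3.5 and 4.4 mg/ml were lost without replicate 1 or 3 (adjusted p = 0.102 to 0.499), and that of Bcl2l11 at 3.5 mg/ml without replicate 1 or 2 (adjusted p = 0.401 and 0.168, edgeR).

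**Figure D4:**
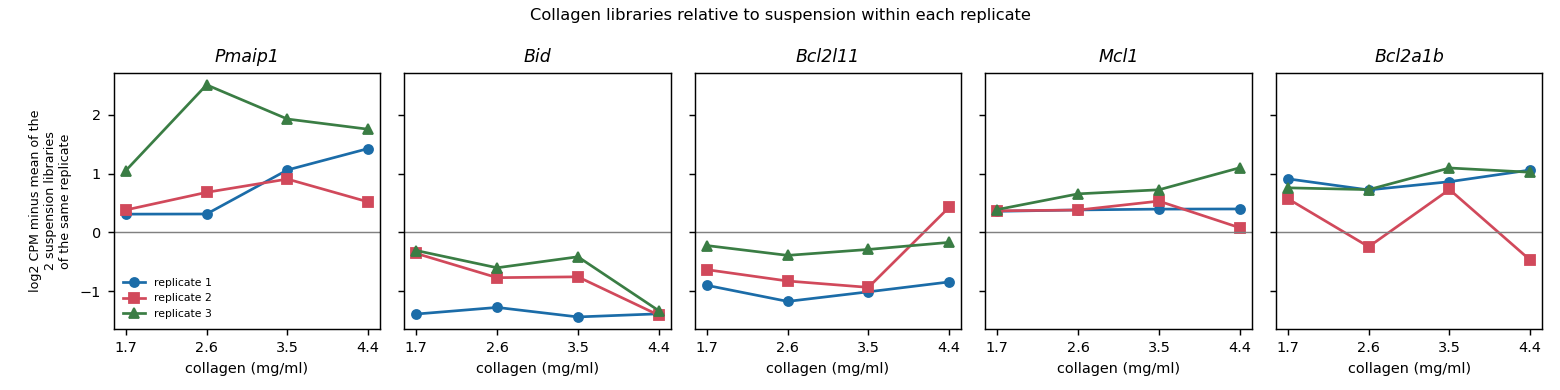
Log2 CPM of each collagen library minus the mean of the 2 suspension libraries with the same replicate number, against collagen density in mg/ml, for the 5 members that passed with or without the block. Lines join libraries of 1 replicate number. All 12 Pmaip1 and Mcl1 values lay above 0 and all 12 Bid values below 0, and replicate 2 at 4.4 mg/ml was the 1 Bcl2l11 value above 0.

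A linear trend over the 4 densities was tested in the same fit. No member passed without the block (0.00722% of all genes) or with it (1.45%), and DESeq2 also called 0 in either fit. An unadjusted p under 0.05 was found for 0 members and 997 genes without the block (edgeR). With the block it was found for 1935 genes, among them 1 member, Bid (edgeR). The slopes were 0.22 ± 0.16 per mg/ml for Pmaip1, −0.26 ± 0.13 for Bid, and 0.14 ± 0.13 for Bcl2l11, with adjusted p-values of 0.898, 0.723, and 0.961 (edgeR). The Pmaip1 slope was positive (0.46, 0.07, and 0.17) and the Bid slope negative (−0.02, −0.35, and −0.32) in replicates 1, 2, and 3.

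No member passed between the suspension groups (0% of all genes passed; 855 genes and 0 members at an unadjusted p under 0.05, edgeR). With the block, 0 members and 0% of all genes passed. An unadjusted p under 0.05 was then found for 1960 genes, among them 1 member, Pmaip1 (edgeR). DESeq2 also called 0 members in either fit. The Pmaip1 libraries titled plus CCL19 were at 28.4 to 37.7 CPM and those titled without at 37.6 to 71.8 CPM, a log2 difference of −0.71 ± 0.45 (adjusted p = 0.762, edgeR). Bcl2l1 was close in the 3 libraries titled plus CCL19 (134 to 142 CPM) and spread in those titled without (92.2 to 177 CPM).

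Of the other family genes, 14 were in the table and all were tested. They were read in collagen against suspension, where 20.2% of all genes passed without the block and 34.8% with it. Among the pro-survival genes Bcl2l2, Bcl2a1a, Bcl2a1c, and Bcl2a1d none passed without the block, and with it Bcl2a1c (0.64, adjusted p = 0.0396, edgeR) passed besides Bcl2a1d. Bok, an effector relative, fell by 1.74 on the log2 scale (adjusted p = 0.0364, edgeR), with 0 to 7 counts per library in collagen and 4 to 35 in suspension. Of the BH3-only genes Bad, Bik, and Bmf none passed without the block, and Bad, a target of survival kinases, rose with it (0.42, adjusted p = 0.0905, edgeR). Of 6 less defined relatives, the mitophagy receptor gene Bnip3l rose with the block (0.66, adjusted p = 0.00772, edgeR). Bcl2l15 passed in both fits (adjusted p = 0.0230 without the block, edgeR), but suspension libraries held 0 to 2 counts and collagen libraries 0 to 62, so no fold is given. Its highest counts were 62 and 31, in replicates 1 and 2 at 4.4 mg/ml.

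Lists of genes around the family were read in collagen against suspension beside the background of all genes tested, where 7.78% rose and 12.4% fell without the block and 34.8% passed with it. Of 13 apoptosome and caspase genes 0 rose and 3 fell: the initiator caspase gene Casp9 (−0.92, adjusted p = 0.00172), Casp2 (−0.80, adjusted p = 0.0430), and Dffa, the inhibitor of the apoptotic nuclease (−0.69, adjusted p = 0.0393, edgeR). With the block 1 rose, the apoptosome gene Apaf1, and 6 fell. Of 7 inhibitors of apoptosis proteins none passed in either fit. Of 8 death receptor genes 2 rose, the receptor Fas (1.22, adjusted p = 0.0126) and the kinase Ripk1 (0.86, adjusted p = 0.0143), and 2 fell, the adaptors Fadd (−0.69, adjusted p = 0.0194) and Tradd (−0.82, adjusted p = 0.00490, edgeR). With the block Cflar, an inhibitor of caspase-8, rose as well (0.61, adjusted p = 0.0805, edgeR), which made 3 up and 2 down. The medians of these 3 lists were −0.29, 0.00, and 0.11.

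Of 7 genes for the turnover of Mcl-1 and BH3-only proteins, Fbxo10, whose protein targets Bcl-2 for degradation, fell (−1.82, adjusted p = 5.42e-04, edgeR), and with the block Usp9x, Fbxw7, and Gsk3b rose as well. Of 14 transcription factors known to act on family genes, Atf4, a stress factor that induces Pmaip1, rose (1.47, adjusted p = 0.0151, edgeR), and with the block Trp53 and Ddit3 also rose. Of 12 p53 targets outside the family 3 rose: the death receptor gene Eda2r (2.04, adjusted p = 0.0384), the p53 ligase gene Mdm2 (1.26, adjusted p = 0.0225), and the cell cycle inhibitor gene Cdkn1a (0.72, adjusted p = 0.0595), whereas Sesn2 fell (−0.49, adjusted p = 0.0620, edgeR). With the block Aen (−0.46, adjusted p = 0.0612) and Gtse1 (−0.46, adjusted p = 0.0686, edgeR) fell as well, so that 3 rose and 3 fell. Of 6 partners at the outer membrane Tspo rose (0.71, adjusted p = 0.0838, edgeR). The medians of these 4 lists were 0.12, 0.08, −0.05, and 0.22, beside 0.00 over all genes tested.

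As a description over the same 18 libraries, which share batches and treatments, the genes with the most similar log2 CPM to Pmaip1 were Hsf2 (Pearson r = 0.970) and Exoc5 (r = 0.963). Those most like Bcl2l11 were Cacfd1 (r = 0.931) and Rhobtb1 (r = 0.907), and those most like Bid were Nlrx1 (r = 0.946) and Xpo5 (r = 0.945). Among the members themselves, the highest correlations were between Bcl2l1 and Bak1 (r = 0.730) and between Bax and Bak1 (r = 0.730), and the lowest was between Bcl2a1b and Bcl2l11 (r = −0.71).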

How the data were processed

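The authors aligned 50-base single-end reads of stranded mRNA libraries to GRCm38 with STAR 2.7.0f (per the submitters' processing notes) and deposited raw counts, whole numbers for each Ensembl gene. The tool that made the counts, its strand setting, and its handling of reads with several matches are not given in the sources used here. The study's methods name RSEM for TPM values, which were not used here, and do not say whether the counts came from it. Groups and replicate numbers came from the sample labels. The members and gene lists were chosen with earlier results of these data known.

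Everything else was computed from the deposited counts in R 4.3.3 with edgeR 4.0.16, limma 3.58.1, and DESeq2 1.42.0. Genes were filtered with filterByExpr, scaled with TMM, and tested in a single quasi-likelihood fit of 6 group means over 18 libraries for 7 comparisons, with Benjamini-Hochberg adjustment over the 13844 genes tested and an FDR of 0.1. The study's methods name DESeq2, which was run as an alternative. Log2 CPM used a prior count of 2. The standard error is the log2 difference divided by the root of F. The fit gave a biological coefficient of variation of 49.0%, which the replicate block lowered to 33.1%. The replicate numbers were taken as pairs, since each number stands for 1 date and lane in the library names. Across genes, deviations from the group means correlated with a mean r of 0.43 over 45 same-number pairs of libraries (−0.15 to 0.85). The labels call the replicates biological. No pair of libraries held identical counts. Levels per length used the union of exons in GENCODE vM21, and promoters came from RefSeq (GRCm38.p6). The fit without the block was also run on simulated counts that held no replicate effect, so that run does not check the part of the replicates. Its outcome is not given here.

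The 10 members were always named. From each list, up to 4 genes past the FDR of 0.1 with the same sign in 3 of 3 replicates were named, and any gene of the family. Hrk and Bcl2l10 were not analysed here. Genes named as passing only with the block, library exceptions, and the Bcl2a1 ratio were chosen after their values were seen.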

Additional observations from a re-analysis of the deposited data

Results flagged for a closer look

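Bcl2 in the 6 suspension libraries had 1 value far from the others. The library titled without CCL19, replicate 2, had 7.43 CPM (163 counts) against 1.16 to 3.50 CPM in the other 5, and its gap to the nearest library was 0.626 of the whole range, just past Dixon's critical value for 6 samples. Chance gives such a value in about 1 of 20 groups, and 10 members were examined. The same library was the highest of the 6 for Pmaip1 (71.8 CPM) and Bok (35 counts) and had the largest mitochondrial share in suspension (1.68%).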

How the results depend on the processing

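In collagen against suspension 3 members passed, and 5 did with the replicate block in edgeR and in DESeq2. Calls over all genes rose as well, from 2790 to 4823 with the block in edgeR. In DESeq2 they numbered 3414 without the block and 5381 with it. Leaving out a replicate number or replicate 2 at 4.4 mg/ml, without or with the block, gave 1 to 5. At 1.7 mg/ml 0 members passed, DESeq2 with the block gave 1, and leaving out libraries gave 0 to 1. At 2.6 mg/ml the count of 1 became 3 with the block, 2 in DESeq2, 4 in DESeq2 with the block, 2 with GC and length offsets, 5 with these and the block, and 0 when only the groups compared were fitted (0 to 4 without libraries). At 3.5 mg/ml the count of 1 became 5 with the block in edgeR and DESeq2, 3 with the offsets and the block, and 0 at an FDR of 0.05 (0 to 5 without libraries). At 4.4 mg/ml the count of 2 became 4 with the block in edgeR and DESeq2 (0 to 4 without libraries). The count stayed at 0 for the trend and for the suspension groups in every alternative run. With all libraries in edgeR, the replicate block changed no call of a member other than the 10 given beside the results. With libraries left out or other settings it added further calls, among them Bcl2 in collagen without replicate 3 (−0.96, adjusted p = 0.0855, edgeR).

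Pmaip1 in collagen passed in 16 of 16 alternatives (log2 difference 0.71 to 1.40), Bid in 15 (−1.12 to −0.72), and Bcl2l11 in 10 (−0.78 to −0.36). Differences that took the other sign, none of them called, were Bcl2 in collagen without replicate 2 (0.32, and 0.013 with the block), Bcl2a1b at 4.4 mg/ml with GC and length offsets (−0.026, and −0.040 with the block), and Bcl2l11 at 4.4 mg/ml with the offsets and the block (0.086) or without replicate 1 (0.23, and 0.22 with the block). Without libraries these ranged from −1.05 to 0.32 for Bcl2 and from −0.58 to 0.23 for Bcl2l11. The cause was not tested. Slopes of the other 7 members took the other sign in 31 of 119 alternatives, and none passed. Over all genes in collagen against suspension, 2790 passed (1077 higher), and 4823 (2158 higher) with the block. Low counts limit Bcl2 (8 to 163 per library) and Bid (54 to 334). The fits that add the block to a left-out library were chosen after the data were seen.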
